A study of Mus musculus with 32 samples.

Results

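The genes described here are Aqp8, Tm4sf1, Glipr2, Pcdh7, Ccdc80, Ephx1, Prrg4, Pdlim1 and Cdh1, 9 of the 19938 genes measured on the arrays. They were picked by name from genes that read lower in mouse macrophage lines whose CSF-1 receptor lacks Tyr-721, in both of the pairs of lines that the study compares. Each gene is read by a probe set that the array's annotation gives to that gene alone, and where a gene has more than 1 such probe set, the brightest on average was kept. All 9 were found, and Pdlim1 was the 1 gene among them with a second probe set.

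CSF-1 is the growth factor that macrophages need to survive and divide, and its receptor is a tyrosine kinase encoded by Csf1r. When CSF-1 binds, tyrosines in the part of the receptor inside the cell are phosphorylated and become docking sites for signalling proteins. Phosphorylated Tyr-721 is known for recruiting phosphatidylinositol 3-kinase, an enzyme that makes a lipid signal at the membrane.

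Total RNA of 4 lines on the M-/- background was hybridised to Affymetrix Mouse Gene 1.0 ST arrays, with 2 arrays, I and II, in each of 16 groups. WT and 3ABY721 carry a receptor with Tyr-721, while Y721F and 3AB lack this tyrosine, so that Y721F is compared with WT and 3AB with 3ABY721. In the steady-state experiment (16 arrays) each line was either starved of CSF-1 or grown in it without a break. In the time course (16 arrays) WT and Y721F cells were starved overnight and then received CSF-1 for 0, 20, 60 or 180 min. The culture medium was α-MEM with newborn calf serum and, unless cells were starved, human CSF-1 at 120 ng/mL. Each receptor came in a line of its own, so receptor and line cannot be told apart, and the labels do not say whether a line is 1 clone. The design text calls the arrays of a group biological replicates without saying whether they came from separate cultures, so every p here measures only the spread between these arrays.

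Levels are log2 signals, in which a step of 1 is a doubling, and levels of different probe sets are not on a common scale. Csf1r, whose probe set was not checked for cover of the altered codon, read between 12.72 and 13.41 on the 32 arrays. It read lower in Y721F, at 12.83 to 13.01 against 13.07 to 13.32 in WT in the time course, and 12.72 to 13.13 against 13.27 to 13.41 in the steady state, where 3ABY721 read 13.03 to 13.16 and 3AB 12.93 to 13.07. Of 12 macrophage markers, 9 read above 10 on every array, among them Cd68 and Adgre1, while Fcgr1 ran from 5.99 to 11.92 and Mertk from 5.43 to 10.26. The mean of the 12 lay between 11.28 and 11.92 in WT, 10.25 and 11.38 in Y721F, 11.07 and 11.51 in 3ABY721 and 11.3 and 11.62 in 3AB. In Y721F against WT 4 of the 12 were called lower grown, starved and in the time-course mean (4.94%, 7.66% and 2.37% of all genes). In 3AB against 3ABY721 0 were called lower (0.642% of all genes grown and 0.371% starved). There 2 were called higher grown and 1 starved (0.542% and 0.246% of all genes). The epithelial marker Epcam read 4.90 to 5.53, and the mean of 10 epithelial markers lay between 5.47 and 6.14 over the arrays of all lines. The mean of 8 endothelial markers lay between 6.11 and 6.67 in WT, 5.90 and 6.35 in Y721F, 6.01 and 6.12 in 3ABY721 and 5.86 and 5.95 in 3AB. The part of Csf1r and of these marker levels in the results was not tested.

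The bases just upstream of a gene are where its transcription is commonly controlled, and RefSeq's table for GRCm38.p6 holds this stretch for 7 of the 9 genes (not for Ccdc80 and Cdh1). Printed here, 5′ to 3′ on the gene's strand, are the 250 bases before the start of Aqp8 and Glipr2, which were lower without Tyr-721 in every comparison of lines, of Tm4sf1, which moved most with CSF-1, and of Pdlim1, which was lower in the steady state and not in the time course. Capitals mark matches, on either strand, to the motifs named after the sequences. The windows are chr7:123462044-123462293 (+ strand) for Aqp8, chr4:43957452-43957701 (+ strand) for Glipr2, chr3:57301989-57302238 (- strand) for Tm4sf1 and chr19:40271617-40271866 (- strand) for Pdlim1.
Aqp8: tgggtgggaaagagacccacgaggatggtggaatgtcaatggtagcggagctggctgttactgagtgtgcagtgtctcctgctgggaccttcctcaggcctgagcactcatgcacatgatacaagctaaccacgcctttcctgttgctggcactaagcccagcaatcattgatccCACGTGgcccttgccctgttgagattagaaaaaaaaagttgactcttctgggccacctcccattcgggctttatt
Glipr2: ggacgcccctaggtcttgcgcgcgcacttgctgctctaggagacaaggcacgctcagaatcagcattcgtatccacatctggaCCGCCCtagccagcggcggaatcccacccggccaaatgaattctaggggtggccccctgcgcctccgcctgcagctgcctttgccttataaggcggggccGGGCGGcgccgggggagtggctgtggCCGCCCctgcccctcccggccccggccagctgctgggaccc
Tm4sf1: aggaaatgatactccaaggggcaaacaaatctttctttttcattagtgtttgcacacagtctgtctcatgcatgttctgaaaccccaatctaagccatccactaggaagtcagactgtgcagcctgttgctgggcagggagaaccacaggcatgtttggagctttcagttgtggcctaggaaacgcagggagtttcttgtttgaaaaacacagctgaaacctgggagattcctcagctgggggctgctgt
Pdlim1: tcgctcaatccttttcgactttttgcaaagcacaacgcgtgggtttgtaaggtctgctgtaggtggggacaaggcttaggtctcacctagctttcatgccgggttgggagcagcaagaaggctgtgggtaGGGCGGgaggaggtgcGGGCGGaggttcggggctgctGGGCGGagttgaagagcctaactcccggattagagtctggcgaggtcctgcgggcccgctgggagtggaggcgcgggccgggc

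No motif searched was found in all 7 upstream stretches, and only GGGCGG was found in more than 1, with 2 (Glipr2 and Pdlim1). Aqp8 holds the E-box CACGTG, starting at -75 from the gene's start, and 6.05% of 27025 promoters of that length hold it. Glipr2 has 3 matches to GGGCGG, the core bound by SP and KLF factors, starting at -167, -67 and -41. Pdlim1 has 3 as well, starting at -120, -104 and -83, and 32.9% of promoters hold at least 1 (the share with 3 was not worked out). None of these matches overlaps another. The Glipr2 stretch is 69.2% G and C and that of Pdlim1 62.4%, against a median of 52.0% over all promoters, while that of Tm4sf1 is 48.0%. The other motifs searched, on both strands, were TGANTCA (AP-1), TGACGTCA (CRE), TTCNNNGAA (STAT), the STAT6 site with 1 base more between its ends, TGTTTAC (FOXO), GAGGAAGT (PU.1) and GCGTGGGCG (EGR), which 6.87%, 1.62%, 7.18%, 5.86%, 3.09%, 2.44% and 0.54% of promoters hold. None of the 7 stretches has a match to them, which says only that these letters are not in the window.

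In the steady state the genes were low without Tyr-721, as they were chosen to be, and these values are a description. In the grown state 19 genes were lower in both pairs of lines (adjusted p under 0.05 by limma and a fold above 1.5, which is what "called" means below), or 0.0953% of all genes, and 7 of the 9 are among them. Starved, 12 genes were lower in both pairs (0.0602%), and 5 of the 9 are among them. Together these are 25 genes (0.125%), which include the 9. Aqp8, Glipr2 and Pdlim1 were in both sets, Tm4sf1, Pcdh7, Ccdc80 and Cdh1 in the grown set alone, and Ephx1 and Prrg4 in the starved set alone. The smallest fold inside the choice was that of Ccdc80 in 3AB against 3ABY721 grown, 1.71. Outside it, in the state where a gene was not called in both pairs, the smaller of its folds was 1.61 for Ccdc80, 1.57 for Tm4sf1, 1.47 for Pcdh7 and 1.13 for Cdh1 starved, and 1.41 for Prrg4 and 1.19 for Ephx1 grown. Only 2 genes were higher in both pairs grown and 0 starved (grown and starved, 4986 and 6405 genes had an unadjusted p under 0.05 in Y721F against WT, and 2251 and 1680 in 3AB against 3ABY721).

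**Figure D1:**
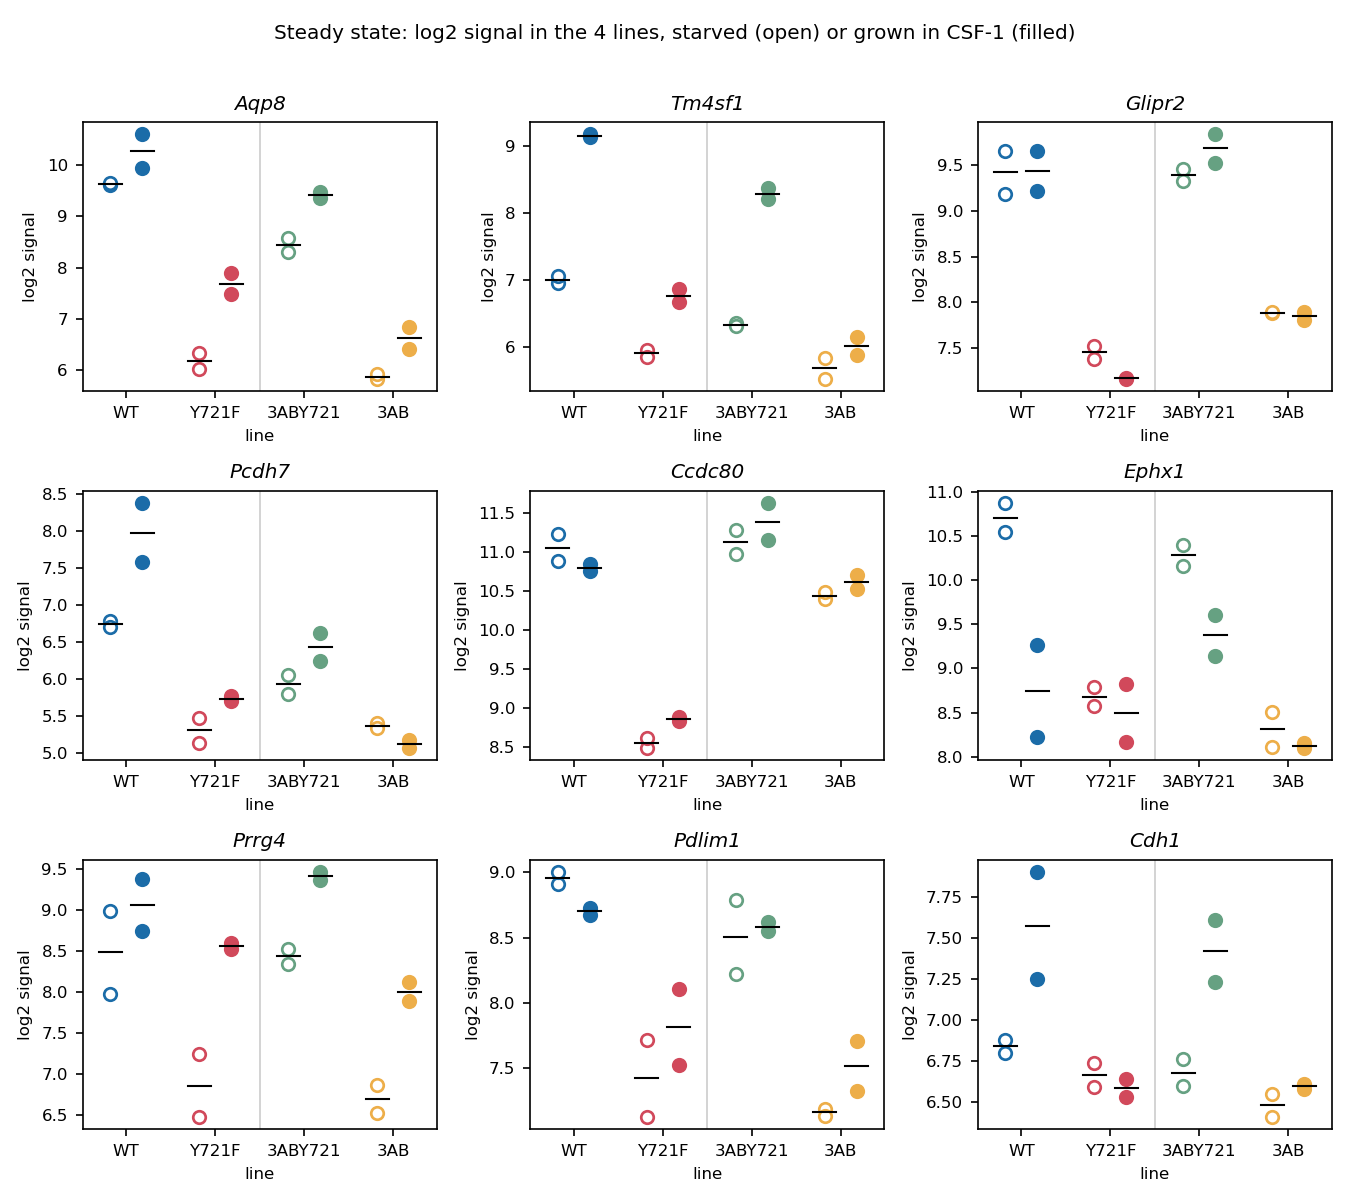
Log2 signal of the 9 genes (1 panel each) in the steady-state arrays of WT, Y721F, 3ABY721 and 3AB, where each point is 1 array, open when starved and filled when grown in CSF-1, and the bar is the mean of the 2 arrays. The lines without Tyr-721, to the right in each pair, sit lower in every panel, except that Ephx1 grown overlaps between WT and Y721F.

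Aqp8 and Tm4sf1 encode proteins that span the membrane, a channel that passes water and hydrogen peroxide and a member of the L6 family with 4 membrane spans. Aqp8 read 9.61 and 9.64 in starved WT against 6.34 and 6.02 in starved Y721F, and 8.30 and 8.58 in starved 3ABY721 against 5.83 and 5.92 in starved 3AB. Grown, it read 9.95 and 10.60 in WT, 7.48 and 7.89 in Y721F, 9.35 and 9.47 in 3ABY721, and 6.42 and 6.84 in 3AB. The gap between the lines of a pair was thus wider than any spread between arrays. It came to -3.44 starved and -2.59 grown for Y721F against WT, and to -2.56 and -2.78 for 3AB against 3ABY721 (standard error, SE, 0.21 each, 2 arrays per group). That is a fold of 5.92 to 10.89.

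Tm4sf1 was low in all starved cells and parted mainly when cells were grown in CSF-1. Starved, it read 6.95 and 7.06 in WT, 5.96 and 5.86 in Y721F, 6.36 and 6.31 in 3ABY721, and 5.84 and 5.53 in 3AB. Grown, it read 9.17 and 9.13 in WT and 8.20 and 8.37 in 3ABY721, but 6.86 and 6.67 in Y721F and 5.89 and 6.15 in 3AB. The differences were -1.10 starved and -2.38 grown in Y721F against WT, and -0.65 and -2.26 in 3AB against 3ABY721 (SE 0.14). The lines with Tyr-721 stood 2.14 (WT) and 1.95 (3ABY721) higher when grown than when starved, against 0.85 in Y721F and 0.34 in 3AB (SE 0.14).

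Cdh1 and Pcdh7 encode cell adhesion proteins, E-cadherin, which holds epithelial cells together and is also made by macrophages that respond to IL-4, and a protocadherin outside the gene clusters. Cdh1 differed little in starved cells, with 6.88 and 6.80 in WT, 6.74 and 6.59 in Y721F, 6.60 and 6.76 in 3ABY721, and 6.55 and 6.41 in 3AB. Grown, it read 7.90 and 7.25 in WT and 7.23 and 7.61 in 3ABY721, against 6.64 and 6.53 in Y721F and 6.61 and 6.58 in 3AB. Its level was higher with growth in the lines that have Tyr-721, by 0.73 and 0.74, and near its starved level in Y721F at -0.08 and 3AB at 0.12 (SE 0.19). The differences between lines were therefore -0.99 and -0.82 grown, but -0.18 and -0.20 starved.

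Pcdh7 was lower without Tyr-721 in both states, with a wider gap in the WT pair. It read 6.78 and 6.71 in starved WT, 5.14 and 5.47 in Y721F, 6.06 and 5.80 in 3ABY721, and 5.40 and 5.34 in 3AB. Grown, it read 8.38 and 7.58 in WT, 5.77 and 5.70 in Y721F, 6.62 and 6.25 in 3ABY721, and 5.07 and 5.18 in 3AB. The differences were -1.44 starved and -2.24 grown for Y721F against WT, and -0.56 and -1.31 for 3AB against 3ABY721 (SE 0.21).

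Ccdc80, which encodes a secreted protein of the extracellular matrix, parted the lines of the WT pair much further than those of the other pair. It read 11.23 and 10.89 in starved WT against 8.49 and 8.62 in Y721F, but 10.98 and 11.29 in 3ABY721 against 10.40 and 10.49 in 3AB. Grown, it read 10.85 and 10.76 in WT, 8.84 and 8.88 in Y721F, 11.16 and 11.63 in 3ABY721, and 10.53 and 10.71 in 3AB. The differences were -2.50 and -1.94 in the first pair and -0.69 and -0.78 in the second (SE 0.17). Every 3AB array stood above every Y721F array.

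Prrg4 encodes a membrane protein with a Gla domain, the calcium-binding fold of clotting factors. Starved, it read 7.98 and 8.99 in WT, 7.24 and 6.48 in Y721F, 8.34 and 8.53 in 3ABY721, and 6.53 and 6.87 in 3AB. Grown, the mean of every line was higher, with 8.74 and 9.38 in WT, 8.52 and 8.60 in Y721F, 9.46 and 9.36 in 3ABY721, and 7.89 and 8.12 in 3AB. The difference in the WT pair shrank from -1.62 starved to -0.50 grown, while that in the 3AB pair was -1.74 and -1.40 (SE 0.30).

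Glipr2, Pdlim1 and Ephx1 encode proteins inside the cell. Glipr2, a CAP domain protein of the Golgi membrane that binds the autophagy protein Beclin 1, hardly moved with growth. It read 9.19 and 9.66 in starved WT, 7.52 and 7.38 in Y721F, 9.46 and 9.33 in 3ABY721, and 7.88 and 7.89 in 3AB. Grown, it read 9.22 and 9.66 in WT, 7.17 and 7.16 in Y721F, 9.84 and 9.53 in 3ABY721, and 7.89 and 7.81 in 3AB. WT and 3ABY721 overlapped, and both stood above Y721F and 3AB. The differences were -1.98 and -2.28 in the WT pair and -1.51 and -1.84 in the 3AB pair, starved and grown (SE 0.18).

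Pdlim1, a PDZ and LIM domain protein that binds alpha-actinin on actin fibres, had a smaller gap that was present in both states. It read 8.91 and 9.0 in starved WT, 7.13 and 7.72 in Y721F, 8.79 and 8.22 in 3ABY721, and 7.19 and 7.14 in 3AB. Grown, it read 8.73 and 8.67, 7.53 and 8.11, 8.62 and 8.55, and 7.71 and 7.33 in the same order of lines. The differences were -1.53 and -0.88 in the WT pair and -1.34 and -1.06 in the 3AB pair (SE 0.23). Its second probe set gave -1.75, -0.87, -1.28 and -1.13.

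Ephx1, the microsomal epoxide hydrolase that detoxifies reactive epoxides, was, among the steady-state groups, highest in starved cells that have Tyr-721. It read 10.87 and 10.54 in starved WT and 10.40 and 10.16 in starved 3ABY721, against 8.79 and 8.57 in Y721F and 8.11 and 8.51 in 3AB. Grown, it read 8.22 and 9.27 in WT, 8.17 and 8.82 in Y721F, 9.61 and 9.14 in 3ABY721, and 8.15 and 8.10 in 3AB. The grown WT and Y721F arrays overlapped, with a difference of -0.25 (SE 0.29) against -2.02 starved. In the 3AB pair the difference was -1.97 starved and -1.25 grown. Growth in CSF-1 went with -1.96 in WT and -0.90 in 3ABY721, and with -0.19 and -0.18 in Y721F and 3AB.

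Over both pairs and both states, 8 of the 9 genes had all arrays of the line without Tyr-721 below all arrays of its partner in each of the 4 comparisons, with Ephx1 as the exception. That held for 1.19% of all genes, and it repeats the choice of the genes.

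**Figure D2:**
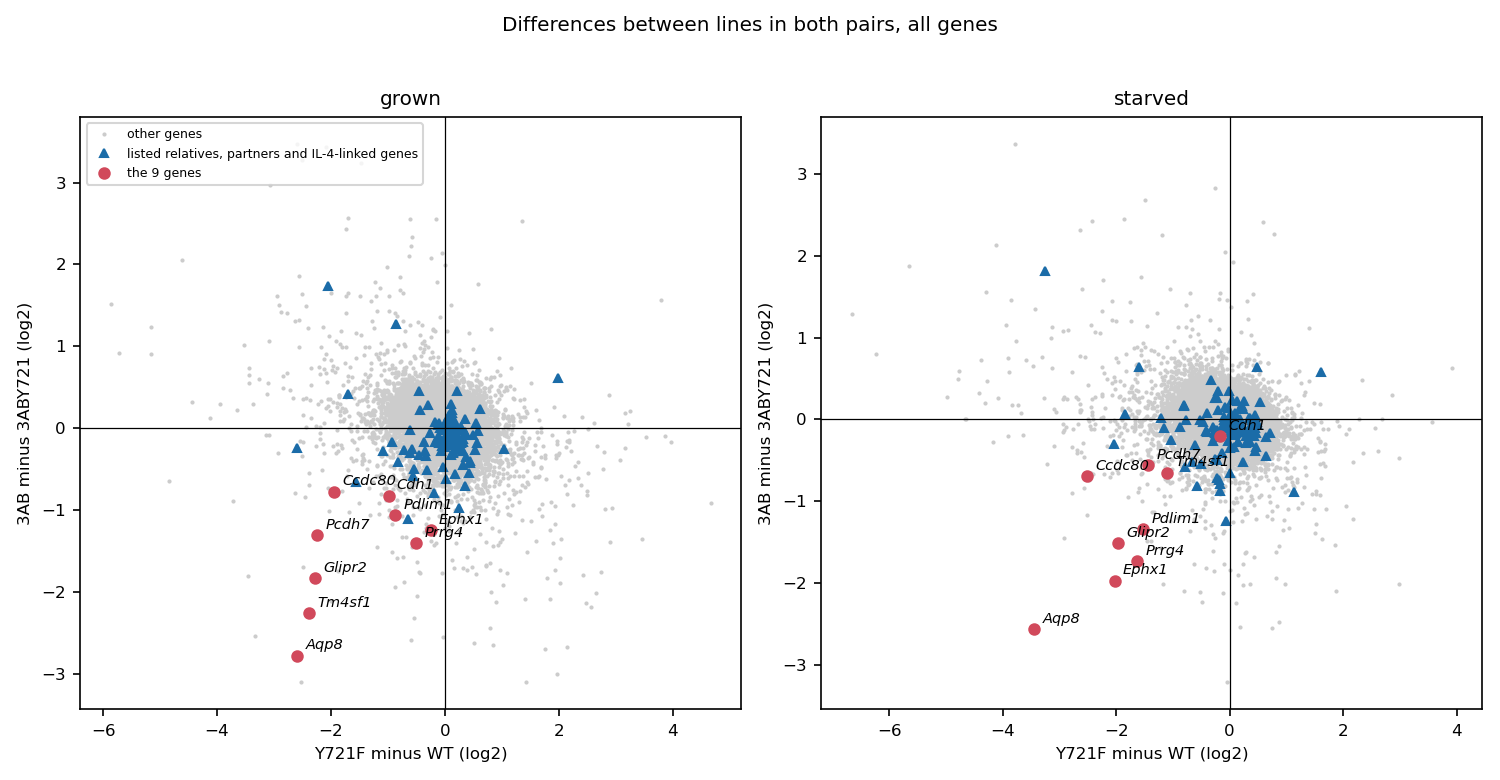
Log2 difference of Y721F from WT (horizontal) and of 3AB from 3ABY721 (vertical) for all 19938 genes, grown (left) and starved (right), with the 9 genes as red circles and the listed relatives, partners and IL-4-linked genes as blue triangles. The 9 genes lie at the lower left because they were chosen there, and Aqp8 is the outermost of them in both states.

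The time course tested the same comparison of Y721F with WT on 16 other arrays of the same lines. That these took no part in the choice was inferred from its rule, since the 3AB pair was measured only in the steady state. Averaged over the 4 times, 6 of the 9 genes were again lower in Y721F, where 2.37% of all genes were called lower. These were Aqp8, Glipr2, Ccdc80, Cdh1, Tm4sf1 and Pcdh7. Ephx1, Prrg4 and Pdlim1 were not called and stood near WT. The median difference of the 9 genes was -1.92, against 0.0 over all genes. At the single times 7, 7, 6 and 6 of the 9 had both Y721F arrays below both WT arrays, where 21.9%, 16.7%, 17.5% and 22.1% of all genes did. All 8 Y721F arrays lay below all 8 WT arrays for Aqp8, Glipr2, Ccdc80 and Cdh1, as for 1.94% of all genes.

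**Figure D3:**
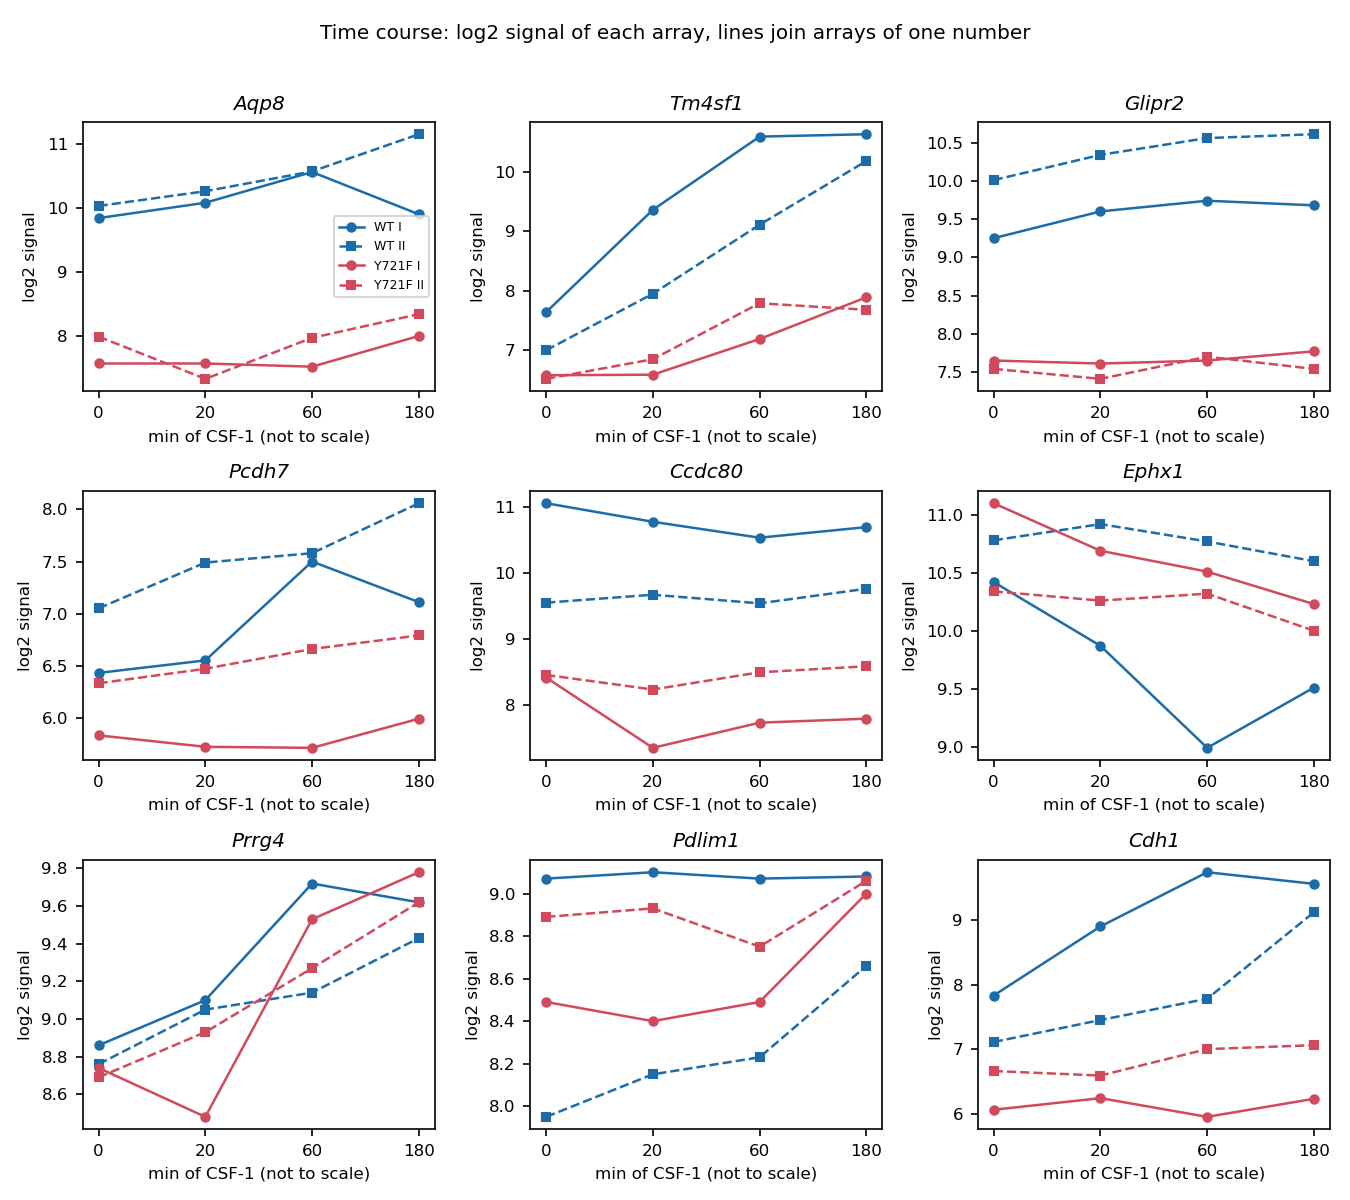
Log2 signal of the 9 genes (1 panel each) in the 16 time-course arrays against min of CSF-1, where blue is WT, red is Y721F, solid lines join the arrays numbered I and dashed lines those numbered II. WT lies above Y721F at every time for Aqp8, Glipr2, Ccdc80 and Cdh1, whereas the lines cross or interleave for Ephx1, Prrg4 and Pdlim1.

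Aqp8 read from 9.84 to 11.15 in the 8 WT arrays and from 7.33 to 8.34 in the 8 Y721F arrays. At 0, 20, 60 and 180 min the WT arrays were at 9.84 and 10.03, 10.08 and 10.26, 10.56 and 10.57, and 9.90 and 11.15. The Y721F arrays were at 7.57 and 7.99, 7.57 and 7.33, 7.52 and 7.97, and 8.0 and 8.34. The groups did not overlap at any time. The mean difference was -2.51 (SE 0.16, limma adjusted p = 2.9e-06), and the gene was called at each of the 4 times, at -2.15, -2.72, -2.82 and -2.36 (SE 0.32). The call at 0 min was lost without WT array I (adjusted p = 0.0856) or II (0.0634) or Y721F array I (0.1), and that at 180 min without Y721F array I (0.0801).

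Glipr2 lay between 9.25 and 10.61 in WT and between 7.41 and 7.77 in Y721F, a level that hardly moved over the 4 times. In WT the arrays numbered I read 9.25 to 9.74 and those numbered II 10.01 to 10.61. Both sets were above every Y721F array. The mean difference was -2.37 (SE 0.18, limma adjusted p = 8.61e-06), and at the 4 times it was -2.04, -2.46, -2.48 and -2.49 (SE 0.36), each called. With 1 array fewer, the call at 0 min was lost in all 4 cases (adjusted p from 0.0667 to 0.166), that at 20 min without WT array II (0.0682) or Y721F array I (0.0708), that at 60 min without Y721F array I (0.0982), and that at 180 min without WT array II (0.0563), Y721F array I (0.0643) or II (0.057).

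Ccdc80 read 10.53 to 11.05 in the WT arrays numbered I and 9.54 to 9.76 in those numbered II, against 7.36 to 8.59 in Y721F. The WT arrays thus fell into separate ranges by number, 1.13 apart on average, and Y721F was below both. The mean difference was -2.06 (SE 0.28, limma adjusted p = 0.000733). At single times it was -1.86, -2.42, -1.92 and -2.03 (SE 0.57), uncalled.

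Cdh1 was at 7.83 and 7.11 in WT at 0 min, at 8.90 and 7.45 at 20 min, at 9.74 and 7.78 at 60 min, and at 9.56 and 9.12 at 180 min. In Y721F it read 6.06 and 6.66, 6.24 and 6.59, 5.95 and 7.0, and 6.23 and 7.06 at those times. All WT arrays stood above all Y721F arrays, though WT array I at 20 and 60 min was over 1 higher than array II. The mean difference was -1.96 (SE 0.31, limma adjusted p = 0.00188). At the single times it was -1.11, -1.76, -2.28 and -2.70 (SE 0.63), uncalled.

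Tm4sf1 read 7.64 and 7.0 in WT at 0 min, 9.36 and 7.95 at 20 min, 10.59 and 9.11 at 60 min, and 10.63 and 10.18 at 180 min. In Y721F it read 6.58 and 6.52, 6.59 and 6.85, 7.19 and 7.79, and 7.89 and 7.68. The groups did not overlap at any single time. The mean difference was -1.92 (SE 0.24, limma adjusted p = 0.000381). The gap was -0.77 at 0 min, -1.94 at 20 min, -2.36 at 60 min and -2.62 at 180 min (SE 0.49), called at 180 min (adjusted p = 0.0261), a call that was lost when any of the 4 arrays was left out (adjusted p from 0.0851 to 0.271).

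Pcdh7 had the smallest of the differences that passed, and its arrays overlapped over the course as a whole. WT read 6.43 and 7.05, 6.55 and 7.49, 7.50 and 7.58, and 7.11 and 8.06 at the 4 times, and Y721F 5.83 and 6.33, 5.72 and 6.47, 5.71 and 6.66, and 5.99 and 6.79. At each single time both WT arrays were above both Y721F arrays. The mean difference was -1.03 (SE 0.23, limma adjusted p = 0.0117), from -0.66 to -1.36 at the single times (SE 0.45), uncalled.

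Arrays of one number within a line deviated together over the time course (Pearson r across genes from 0.353 to 0.734), so the 8 arrays of a line are not fully independent. With the number as a random block the same 6 genes were called, with adjusted p from 9.59e-06 (Glipr2) to 0.0248 (Pcdh7), where 2.01% of all genes were called lower. That fit takes 1 correlation, 0.296, for all genes, and each line has only the numbers I and II. The mean of arrays I minus that of II was 1.13 for Ccdc80 and 1.14 for Cdh1 in WT. It was -0.75 for Pcdh7 and 0.12 for Glipr2 in Y721F. The fit may thus allow too little for the number in single genes. At the single times that fit called 2, 4, 5 and 5 of the 9 genes (background 0.572%, 1.1%, 0.823% and 0.727%), against 2, 2, 2 and 3 without it (background 0.306%, 0.537%, 0.406% and 0.446%). The genes it added were Tm4sf1 at 20 and 60 min, Ccdc80 at 20, 60 and 180 min, and Cdh1 at 60 and 180 min. The 6 genes stayed called on the mean of the 4 times when any 1 of the 16 arrays was left out. All arrays of a number were never left out together, so this does not test dependence on the number.

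Ephx1, Prrg4 and Pdlim1 gave another picture. Ephx1 ran from 8.99 to 10.92 in WT and from 10.00 to 11.10 in Y721F, with a mean difference of 0.20 (95% interval -0.39 to 0.79, limma adjusted p = 0.747). Prrg4 ran from 8.76 to 9.72 in WT and from 8.48 to 9.78 in Y721F, with -0.08 (interval -0.29 to 0.13, adjusted p = 0.707). Pdlim1 ran from 7.95 to 9.10 in WT and from 8.40 to 9.06 in Y721F, with 0.09 (interval -0.35 to 0.53, adjusted p = 0.867), and its second probe set gave 0.01. The arrays of both lines overlapped for all 3 genes. The intervals do not include the starved steady-state differences of the same lines, -2.02, -1.62 and -1.53. The grown difference of Ephx1, -0.25, lies inside its interval, and those of Prrg4, -0.50, and Pdlim1, -0.88, lie outside. These grown differences carry their own error, with intervals of -1.14 to 0.14 for Prrg4, which overlaps, and -1.37 to -0.39 for Pdlim1. With the number as a block the time-course intervals of Prrg4 and Pdlim1 were -0.38 to 0.22 and -0.38 to 0.55. In WT the numbers stood apart for Ephx1, with array I readings from 8.99 to 10.42 and array II readings from 10.60 to 10.92, and for Pdlim1, with 9.07 to 9.10 and 7.95 to 8.66. Ranges apart by number were found for 14.8% of all genes in WT.

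**Figure D4:**
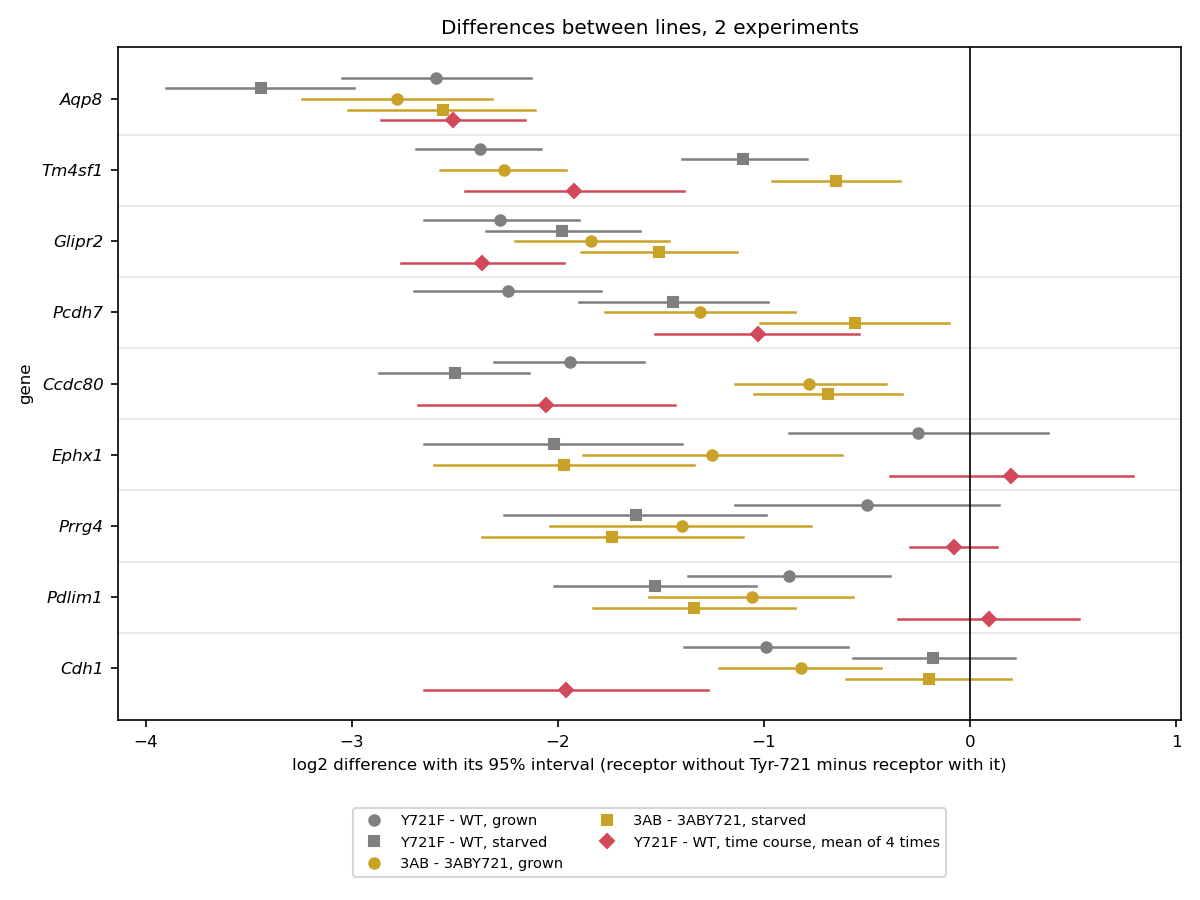
Log2 difference between the line without Tyr-721 and its partner for each gene, with 95% intervals, for the pairs grown and starved (grey and gold, values used to choose the genes) and for Y721F against WT averaged over the time course (red). The red points lie left of 0 for the 6 genes called lower, from -1.03 to -2.51, and near 0 for Ephx1, Prrg4 and Pdlim1.

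CSF-1-starved WT and Y721F cells were measured in both experiments, which allows the levels to be set side by side. In WT the 0 min level was within 0.76 of the starved steady-state level for each of the 9 genes. In Y721F 4 genes were more than 1 higher at 0 min than in the starved steady state, Ephx1 by 2.04, Prrg4 by 1.85, Aqp8 by 1.60 and Pdlim1 by 1.27, where 6.66% of all genes were that much higher (2.72% in WT). Ephx1 was at 11.10 and 10.34 at 0 min against 8.79 and 8.57 in the starved steady state. Prrg4 was at 8.74 and 8.69 against 7.24 and 6.48, and Pdlim1 at 8.49 and 8.89 against 7.13 and 7.72. The arrays of the experiments did not overlap for these genes in Y721F, but the share of all genes for which that holds was not worked out. The experiments were fitted as separate sets, and the sample titles do not say whether their arrays were run together. What else differed between the experiments was not tested, so no test was made of this difference.

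**Figure D5:**
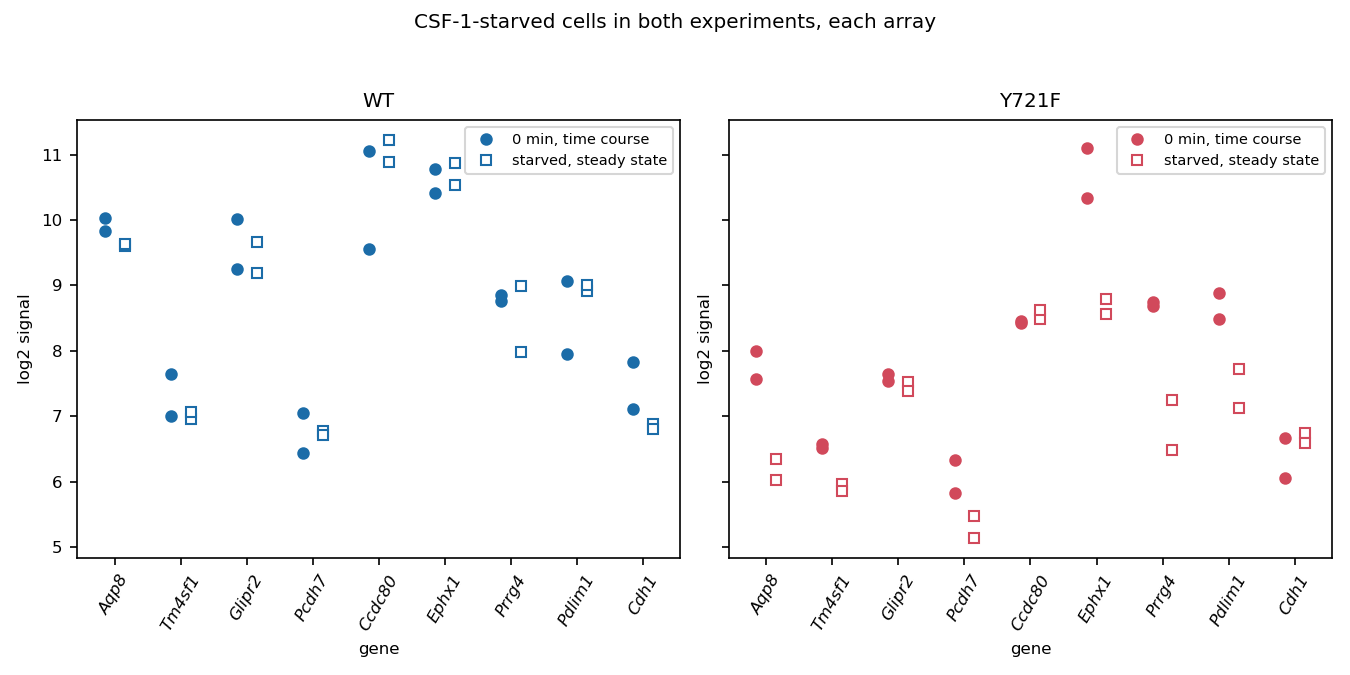
Log2 signal of each gene in CSF-1-starved WT (left) and Y721F (right), where filled circles are the 0 min arrays of the time course and open squares the starved arrays of the steady-state experiment. In Y721F the circles of Ephx1, Prrg4, Pdlim1 and Aqp8 lie more than 1 above the squares on average.

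The response to CSF-1 itself was called in WT for Tm4sf1 alone among the 9 genes. It rose by 2.53 at 60 min (SE 0.49, limma adjusted p = 0.0431) and by 3.08 at 180 min (adjusted p = 0.0168), where 0.547% and 1.38% of all genes rose, and measured 1.34 at 20 min, uncalled, with 0.155% of genes called higher. The call at 60 min was lost with quantile normalization (adjusted p = 0.0609) and without WT 0 min array I or II or 60 min array I (0.172, 0.224 and 0.348). The call at 180 min was lost without any 1 of its 4 arrays (0.0637 to 0.114). With the number as a block within the line, Tm4sf1 rose at all 3 times (adjusted p = 0.0394, 0.000155 and 7.72e-05), and 3 more genes rose at 60 and 180 min. That fit called 0.406%, 2.76% and 4.63% of all genes higher. These were Cdh1, by 1.29 and 1.87 (adjusted p = 0.0251 and 0.00258), Pcdh7, by 0.80 and 0.84 (0.0286 and 0.0109), and Prrg4, by 0.62 and 0.72 (0.048 and 0.015).

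In Y721F none of the 9 genes was called at 20, 60 or 180 min, where limma called 0.0752%, 0.16% and 0.171% of all genes higher and 1357, 1064 and 2656 genes had an unadjusted p under 0.05. With the block, Tm4sf1 rose by 1.24 (adjusted p = 0.0133) and Prrg4 by 0.98 (adjusted p = 0.00755) at 180 min, and the fit called 0.196%, 0.687% and 2.65% of all genes higher at the 3 times. Cdh1 measured 0.28 (SE 0.28) and Pcdh7 0.31 (SE 0.18) there, uncalled. Tested as its own contrast, the response differed between Y721F and WT for 0 of the 9 genes and for 0 of all genes by limma at each time (810, 640 and 277 genes with an unadjusted p under 0.05), and with the block for 1, 1 and 0 genes (0.00502% at 20 and 60 min), none of them among the 9. For Tm4sf1 the response in Y721F minus that in WT was -1.16, -1.59 and -1.85 (SE 0.69), uncalled, with a 95% interval at 180 min from -3.35 to -0.35 before adjustment over all genes. Cdh1 measured -1.58 at 180 min (interval -3.53 to 0.36). With the block these intervals were -2.60 to -1.10 for Tm4sf1 (adjusted p = 0.391) and -2.46 to -0.71 for Cdh1 (adjusted p = 0.994).

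Growth in CSF-1, read on the arrays that chose the genes and so given as values only, differed among the genes. Aqp8 and Tm4sf1 had both grown arrays above both starved arrays in all 4 lines, for Aqp8 at 0.65 in WT, 1.50 in Y721F, 0.97 in 3ABY721 and 0.76 in 3AB. Prrg4 stood 1.7 and 1.3 higher in the lines without Tyr-721 and 0.57 and 0.98 higher in WT and 3ABY721 (SE 0.30), with overlapping arrays in WT. Pcdh7 stood at 1.24 in WT, 0.43 in Y721F, 0.51 in 3ABY721 and -0.24 in 3AB (SE 0.21). Glipr2, Ccdc80 and Pdlim1 moved by no more than 0.40 in any line, and Ephx1 was lower when grown, as given above. Counted by arrays that do not overlap, 4, 5, 6 and 6 of the 9 genes were higher when grown in WT, Y721F, 3ABY721 and 3AB, where 19.5%, 25.1%, 24.5% and 26.2% of all genes were.

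Genes related to the 9 were listed, though many of them read too low to show a fall. Of 59 relatives (other aquaporins, L6 proteins, CAP proteins, protocadherins outside the clusters, Ccdc80-like proteins, epoxide hydrolases, Gla proteins, PDZ-LIM proteins and classical cadherins) 58 were measured. The median gene read 6.57 on average. Above it were 2 of 11 aquaporins, 2 of 4 L6 proteins, 1 of 9 CAP proteins and 0 of 11 protocadherins. The other lists had 0 of 2, 0 of 3, 1 of 3, 4 of 6 and 0 of 9 above it, in the order given. Dim genes have little room to read lower, so missing calls say little about them. By limma 0 were called in the same direction in both pairs, grown or starved. Of all genes 0.0953% grown and 0.0602% starved were called lower in both pairs, and 0.01% and 0.0% higher. At such shares a list of this size would hold 0 in most cases, so the count tells nothing about the relatives. At an unadjusted p under 0.05 in both pairs the counts were 0 grown and 2 starved, Pdlim2 lower (-0.80 in Y721F and -0.58 in 3AB) and Pdlim4 higher (0.49 and 0.64), and with a fold above 1.5 as well, the series text's cutoff, 0 and 1. The share of all genes that reach either cutoff in both pairs was not worked out. The median difference of the 58 relatives in Y721F was 0.14 grown and 0.14 starved, and in 3AB -0.12 and -0.08, against all-gene medians of 0.05, 0.0, -0.01 and 0.0. Grown, 0 were called in either pair, where 4.94% of all genes were lower in Y721F and 0.642% in 3AB (7.66% and 0.371% starved). Starved, Tm4sf5 (-0.80), Glipr1 (-0.87) and Pdlim2 (-0.80) were lower and Pcdh15 (0.71) was higher in Y721F, and Pi16 (-0.87) was lower in 3AB; these and the genes named in the next paragraphs were chosen after their values were seen. In the time-course mean Tm4sf19 (-0.64, limma adjusted p = 0.00143) and Pdlim7 (-0.70, adjusted p = 0.00227) were lower and Pdlim4 (0.95, adjusted p = 8.85e-05) was higher in Y721F. The cadherins Cdh2 and Cdh5, of nerve and vessel cells, read 4.59 and 5.91 on average, below the median gene, and were not called in any of these comparisons.

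Partners of the 9 genes gave 0 calls shared by both pairs among 36 measured of 39 listed, where 0.0953% (grown) and 0.0602% (starved) of all genes were lower in both. Grown, 5 were called lower and 3 higher in Y721F (background 4.94% and 2.94%), and 1 lower in 3AB (0.642%). Starved, 4 were lower and 2 higher in Y721F (7.66% and 3.47%), and 2 lower in 3AB (0.371%). An unadjusted p under 0.05 in both pairs was reached by 4 grown (Actn1, Gstp1, Vcl and Zyx) and 3 starved (Gstp1, Vcl and Zyx). The share of all genes that reach this p in both pairs was not worked out, so the unadjusted counts have no background. The focal adhesion genes Vcl, vinculin, measured -0.54 and -0.49 grown and Zyx, zyxin, -0.56 and -0.58, in Y721F and 3AB, all uncalled. Starved, Vcl was called only in 3AB (-0.81) and Zyx only in Y721F (-0.66). The actin partners Flna and Tln1 were called lower in Y721F grown, by -0.93 and -0.62, and measured -0.16 and -0.02 in 3AB. The list had medians of -0.04 and -0.20 in Y721F and -0.16 and -0.16 in 3AB, grown and starved. Of the catenins, which tie E-cadherin to actin, Ctnna1 measured -0.02 and Ctnnb1 0.35 in Y721F against WT grown, neither called. The catenin Ctnnd1 was lower there, by -0.61, and Ctnnd2 by -0.82, while in 3AB against 3ABY721 they measured -0.31 and -0.41, uncalled. Afdn, which encodes the junction protein afadin, was lower in 3AB by -0.98 grown and -0.79 starved and measured 0.24 and -0.17 in the WT pair. Mgst1, a glutathione transferase of the membrane that, like Ephx1, acts on reactive compounds, was lower in Y721F by -1.71 grown and -1.85 starved and measured 0.42 and 0.06 in 3AB. Gstp1, another glutathione transferase, was higher in Y721F by 1.99 and 1.61 and measured 0.62 and 0.58 in 3AB. In the time-course mean Mgst1 (-1.54, limma adjusted p = 0.000383) was lower and Gstp1 (1.14, adjusted p = 0.00412) and the junction gene Jup (0.69, adjusted p = 0.000835) were higher in Y721F.

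Genes linked to IL-4 in macrophages, listed because Cdh1 is one of them, were measured for all 20 listed and also gave 0 calls shared in direction by both pairs, by limma and at an unadjusted p. By limma 0.0953% of all genes grown and 0.0602% starved were called lower in both pairs, so 0 of 20 lies at that background. Grown, 5 were lower in Y721F (background 4.94%) and 0 in 3AB (0.642%). Arg1, arginase 1, was at -2.60 in Y721F and -0.25 in 3AB, and Il1rn, the blocker of the IL-1 receptor, at -1.56 and -0.66. The lectin genes Mrc1 and Clec7a were lower in Y721F, by -0.85 and -2.05, and higher in 3AB, by 1.27 and 1.74. Il4ra measured -1.08 in Y721F and -0.28 in 3AB. Starved, 3 were lower and 1 was higher in Y721F (background 7.66% and 3.47%). In starved 3AB 0 were lower and 1 was higher (0.371% and 0.246%). Mrc1 measured -3.26 in starved Y721F and 1.82 in starved 3AB. In the time-course mean 4 of the 20 were lower in Y721F, Arg1 by -2.47, Mrc1 by -2.54, Clec7a by -1.59 and Il1rn by -1.12, and 3 were higher (Fgl2, Clec10a and Mgl2), where 2.37% of all genes were lower and 1.56% higher.

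Over the 16 group means the 9 genes did not follow 1 pattern. Pearson r between them ran from -0.18 to 0.93 over 36 pairs, all of which share the arrays and the lines. The group means include the steady state, where the genes were chosen to be low in the same lines, so high r among them is partly built in. No background r was worked out. Aqp8, Tm4sf1, Glipr2, Pcdh7 and Cdh1, a set not fixed beforehand, had r from 0.71 to 0.93 over their 10 pairs. With them Ccdc80 had r from 0.22 (Tm4sf1) to 0.73 (Glipr2). Ephx1, Prrg4 and Pdlim1 had r from 0.55 to 0.86 among themselves, but pairs across these sets reached as high as 0.75 (Tm4sf1 and Prrg4) and 0.74 (Aqp8 and Pdlim1), so the sets are not separate, and Ccdc80 was at -0.18 to -0.02 with these 3. Among 6219 other genes, none of the 9, whose group means span 1 or more, the most like Tm4sf1 were Dok2 (r = 0.969) and Trem1 (0.957), and the most like Ccdc80 were Rasgrf2 (0.973) and Cers4 (0.959). Cdh1 was followed by Dtna (0.947) and Rhoj (0.941), Glipr2 by Mreg (0.932) and Gm1966 (0.919), and Prrg4 by Dhrs9 (0.923) and Plet1 (0.902). Aqp8 was most like Car5b (0.918) and Kdr (0.912), and Kdr, which encodes a receptor for VEGF and was among the endothelial markers, was also, among those genes, the most like Pcdh7 (0.908), before Serpinb1b (0.9). Ephx1 was most like Elovl7 (0.897) and Pnpla2 (0.88), and Pdlim1 most like Zmat3 (0.86) and Tulp4 (0.851).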

How the data were processed

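The authors deposited one log2 signal per probe set and array for 35556 probe sets. That the scale is log2 was read from the values. How the signals were background-corrected, summarized and normalized, and on which build, is not given in the sources used here. Medians of the arrays lay between 5.97 and 6.22, and the arrays of a group correlated at r from 0.985 to 0.993. RNA with an integrity number above 9.5 was used, per the labels' design text.

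The annotation table names 1 gene for 21789 probe sets (used), several for 1621 (left out), and does not list 12146. Of those used, 21698 matched RefSeq's gene table. The probe set with the highest mean stood for a gene, giving 19938 genes. Each experiment was fitted with a mean per group in limma 3.58.1 (R 4.3.3; 8 residual degrees of freedom, prior 3.48 for the time course and 6.33 for the steady state), with Benjamini-Hochberg adjustment over all genes. A call needs an adjusted p under 0.05 and a fold above 1.5, the fold of the series text. The mean of 4 times averages the 4 differences. The fit was tested on simulated data for Y721F against WT at 0 min. Of 100 changed genes at each size, 75% were recovered at a log2 change of 1 and 96% at 2. There were 6 false calls among 19938 genes. These rates hold for the simulated data and do not give the power for single genes in the time course. Ccdc80 at -2.42 (SE 0.57, 20 min) and Cdh1 at -2.7 (SE 0.63, 180 min) were uncalled by limma. Aqp8 and Glipr2, with SE 0.32 and 0.36, were called at each time.

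Arrays of one number paired within a line in the time course (all 12 correlations above 0.1), so the number entered a second fit as a block, fixed within a line and random (correlation 0.296) between lines. Quantile normalization, a filter on dim genes, a fit of all 32 arrays, the unadjusted cutoff of the series text and leaving out each array were the other alternatives. The number of arrays limits the precision. Named genes are the 9, Csf1r, up to 3 genes per list called alike in both pairs, and the 2 genes outside the 9 most like each. The list part of this rule gave 0 genes, and the other list and marker genes named were chosen after their values were seen. The genes and the lists were chosen with earlier results of these data known.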

Additional observations from a re-analysis of the deposited data

Results flagged for a closer look

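Grown and starved levels of 4 of the 9 genes stood in opposite order in different lines, with both grown arrays on one side of both starved arrays in each of the lines compared. These differences between lines were not tested, since the same arrays chose the genes. Such an opposite order in any 2 of the 4 lines was found for 14.3% of all genes, and for 2.63% to 5.04% in a given 2 lines. Several of the shifts are about the size of their SE, such as -0.24 (SE 0.21) for Pcdh7 in 3AB and -0.25 (SE 0.23) for Pdlim1 in WT. Pcdh7 was higher when grown in WT, Y721F and 3ABY721 and lower in 3AB, and its growth difference exceeded that of 3AB by 1.48, 0.68 and 0.75. Ccdc80 was lower when grown in WT and higher in Y721F and 3AB, so that WT differed from these lines by -0.56 and -0.43. Glipr2 was lower when grown in Y721F and higher in 3ABY721, which differ by -0.57. Pdlim1 was lower when grown in WT and higher in 3AB, which differ by -0.61.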

How the results depend on the processing

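On the mean of the 4 times 6 of the 9 genes were lower in Y721F under quantile normalization, the filter on dim genes, the fit of 32 arrays, the replicate block, the series text's cutoff and each of the 16 omissions of an array. Counts at single times moved with the setting. At 20, 60 and 180 min 2, 2 and 3 genes were lower. The fit of 32 arrays gave 4, 5 and 5, the replicate block 4, 5 and 5, and the unadjusted cutoff of the series text 5, 6 and 6. Without 1 array they ranged from 1 to 2, 1 to 4 (the most without WT array II) and 0 to 2, and at 0 min from 0 to 1 against 2. Genes changed by CSF-1 in WT at 20, 60 and 180 min were 0, 1 and 1. The block gave 1, 4 and 4, the series text's cutoff 1, 2 and 3, quantile normalization 0 at 60 min, and the fit of 32 arrays 2 at 180 min. Without 1 array they ranged from 0 to 0, 0 to 2 and 0 to 1. In Y721F the counts were 0 at each time, also when 1 array was left out. The series text's cutoff gave 1 at 60 min and 2 at 180 min, and the block 2 at 180 min. The difference of responses gave 1 gene at 60 min and 1 at 180 min under the series text's cutoff, otherwise 0. In the steady state the arrays apart numbered 8 to 9 in Y721F against WT grown and 9 to 9 in the other comparisons of lines without 1 array. The counts higher when grown ranged from 4 to 6 in WT, 5 to 7 in Y721F, 6 to 7 in 3ABY721 and 6 to 6 in 3AB. Of the listed genes called alike in both pairs, relatives and IL-4-linked genes ranged from 0 to 0 without 1 array and partners from 0 to 1 (1 without WT or Y721F starved array I). The series text's cutoff, for these lists chosen after seeing the data, gave 1 relative and 1 partner. None of 17 called time-course differences of the 9 genes changed sign, while of 109 uncalled ones 53 did so without 1 array and 9 under other settings. The cause of these shifts was not tested beyond the fewer arrays of an omission.

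Calls over all genes also moved by more than 1.5 times. They were 145, 190, 164 and 193 for Y721F against WT at the 4 times, 32, 126 and 431 for the WT response and 16, 35 and 52 for the Y721F response. Under the fit of 32 arrays, the block and the series text's cutoff, in this order, Y721F against WT gave 275, 261 and 704 genes at 0 min, 401, 363 and 900 at 20 min, 316, 300 and 753 at 60 min, and 348, 306 and 722 at 180 min. The WT response gave 50, 86 and 148, then 202, 745 and 826, then 809, 1557 and 1415. The Y721F response gave 27, 49 and 128, then 65, 170 and 307, then 359, 1074 and 1050, with 9 at 20 min and 34 at 180 min under quantile normalization. Without 1 array, Y721F against WT gave 33 to 85, 50 to 239, 36 to 199 and 39 to 98, the WT response 12 to 20, 21 to 698 (the most without WT 60 min array II) and 6 to 163, and the Y721F response 3 to 13, 11 to 59 and 0 to 86. In the steady state the numbers did not pair (r from 0.042 to 0.28).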
